A study of Danio rerio with 6 samples.

Results

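The genes described here are 10 genes of the zebrafish red blood cell, chosen by name with earlier results of these data known. They are 5 globin genes (hbae3, hbae5, hbbe2, hbba1 and hbba2), alas2, slc4a1a, gata1a, epor and tfr1a. A gene was measured where a transcript cluster, the probe group that the array reads as 1 value, carried its symbol and no other, and the cluster with the highest mean stood for the gene. This held for 8 of the 10 genes, out of 19260 genes measured in this way. The array's annotation places hbae5 on a cluster shared with hbbe2, and hbba1 on a cluster shared with ba1l and ba2, so no values are given for hbae5 and hbba1.

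The larvae were whole 10 dpf animals of the line Tg (mbp:nfsB-egfp), in which the promoter of mbp, the myelin basic protein gene, drives a fusion of bacterial nitroreductase and EGFP in myelin-forming cells. The metronidazole-treated group (Mtz) was kept in 5 mM metronidazole with 0.2% DMSO for 5 days from 5 dpf, and the control group (Ctrl) carried the same transgene and was kept in 0.2% DMSO alone. Each group had 3 arrays, and each array held RNA pooled from 5 larvae. No arrays of metronidazole-treated larvae lacking the transgene were analysed here, so the drug itself and the loss of myelin-forming cells cannot be told apart.

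Red blood cells of fish keep their nucleus and carry oxygen on hemoglobin, which is assembled from alpha and beta globin chains that each hold a heme group. Zebrafish switch from globins named embryonic to globins named adult as they grow, and the genes lie in a pair of clusters. In the current RefSeq assembly hbae3 and hbba2 belong to the same cluster of 11 globin genes, while hbbe2 neighbours hbae5 in another cluster of 4. Heme is made in a chain of steps that starts in red cells with the enzyme encoded by alas2, and the iron for it enters through the transferrin receptor encoded by tfr1a. The transcription factor encoded by gata1a and the erythropoietin receptor encoded by epor act in the making of red cells, and slc4a1a encodes band 3, the anion exchanger of the red cell membrane.

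The deposited values were log2 signals. The median signal lay between 5.10 and 5.14 on the 6 arrays, so the arrays shared a scale. Values of different clusters depend on their probes, so levels are compared here only within a gene. The genes of the ablated cells, mbpa and mbpb, differed by -0.14 (SE, the standard error, 0.16) and 0.03 (SE 0.13) between Mtz and Ctrl on the log2 scale. In some of the genes read here, single arrays stood apart. Ctrl replicate 1 was the lowest array for 7 of the 8 red cell genes, as it was for 13.5% of all clusters. Ctrl replicate 2 was the highest for the 5 of them with the widest spread and for gata1a. The share of all clusters with Ctrl replicate 2 highest is not given here. Mtz replicate 1 was the highest array for the neutrophil genes mmp13a, srgn, mpx and cebpa, but not for lyz, csf3r and cpa5 of the same list. The most extreme was mmp13a, which encodes a matrix protease. It was at 9.64 there, at 5.28 and 5.71 in the other Mtz arrays and at 5.16 to 5.42 in Ctrl. By contrast, lyz was at 6.59 there and at 7.14 in Ctrl replicate 2.

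None of the 8 red cell genes passed the test between Mtz and Ctrl larvae. Limma called 0 of the 8 at an adjusted p under 0.05, where it called 0.0% of all 75212 transcript clusters, and 0 of the 8 had an unadjusted p under 0.05, where 4.79% of all clusters did (2.57% lower and 2.22% higher in Mtz). The methods' t-test also gave 0 of 8, adjusted or not. Mtz and Ctrl arrays overlapped for every one of the 8 genes, while they did not overlap for 9.95% of all clusters (4.15% lower and 5.8% higher in Mtz). A fitted change of 2-fold or more in either direction was found for 0 of the 8 and for 1.43% of all clusters. The log2 difference was negative for 6 of the 8 genes, beside 43.3% of all clusters. The median was -0.20, beside 0.03 over all clusters. Of the negative genes, hbae3, hbbe2, alas2, slc4a1a and tfr1a varied together over the arrays (Pearson's r between pairs 0.89 to 1.0). Their signs are therefore not independent. These are whole larvae, in which fewer red cells and less RNA per red cell cannot be told apart.

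The embryonic alpha globin gene hbae3 had log2 signals of 9.61, 10.29 and 10.61 in Mtz larvae, against 9.35, 11.74 and 11.05 in Ctrl larvae (replicates 1, 2 and 3). The lowest and the highest array were both Ctrl, so the Mtz values lay inside the Ctrl range. The group means were 10.17 ± 0.51 in Mtz and 10.71 ± 1.23 in Ctrl (SD, n = 3 each). The log2 fold change was -0.54 (SE 0.60, limma adjusted p = 0.963), or 0.687 of the Ctrl level, with a 95% interval of 0.253 to 1.87. Both a large decrease and a large increase lie inside this interval. The within-replicate differences were 0.26, -1.44 and -0.44, so replicate 1 went the other way.

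The embryonic beta globin gene hbbe2, which lies in the other globin cluster, followed the same order of arrays. It had log2 signals of 8.01, 8.60 and 8.88 in Mtz larvae, against 7.90, 9.71 and 9.33 in Ctrl larvae. Its log2 fold change was -0.49 (SE 0.48, limma adjusted p = 0.961), with a 95% interval of -1.64 to 0.67 and within-replicate differences of 0.10, -1.11 and -0.45. Both values depended on single Ctrl arrays. Without Ctrl replicate 1 the log2 fold change was -1.22 for hbae3 and -1.03 for hbbe2 (limma adjusted p = 0.508 and 0.505), and without Ctrl replicate 2 it was -0.03 and -0.12.

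**Figure D1:**
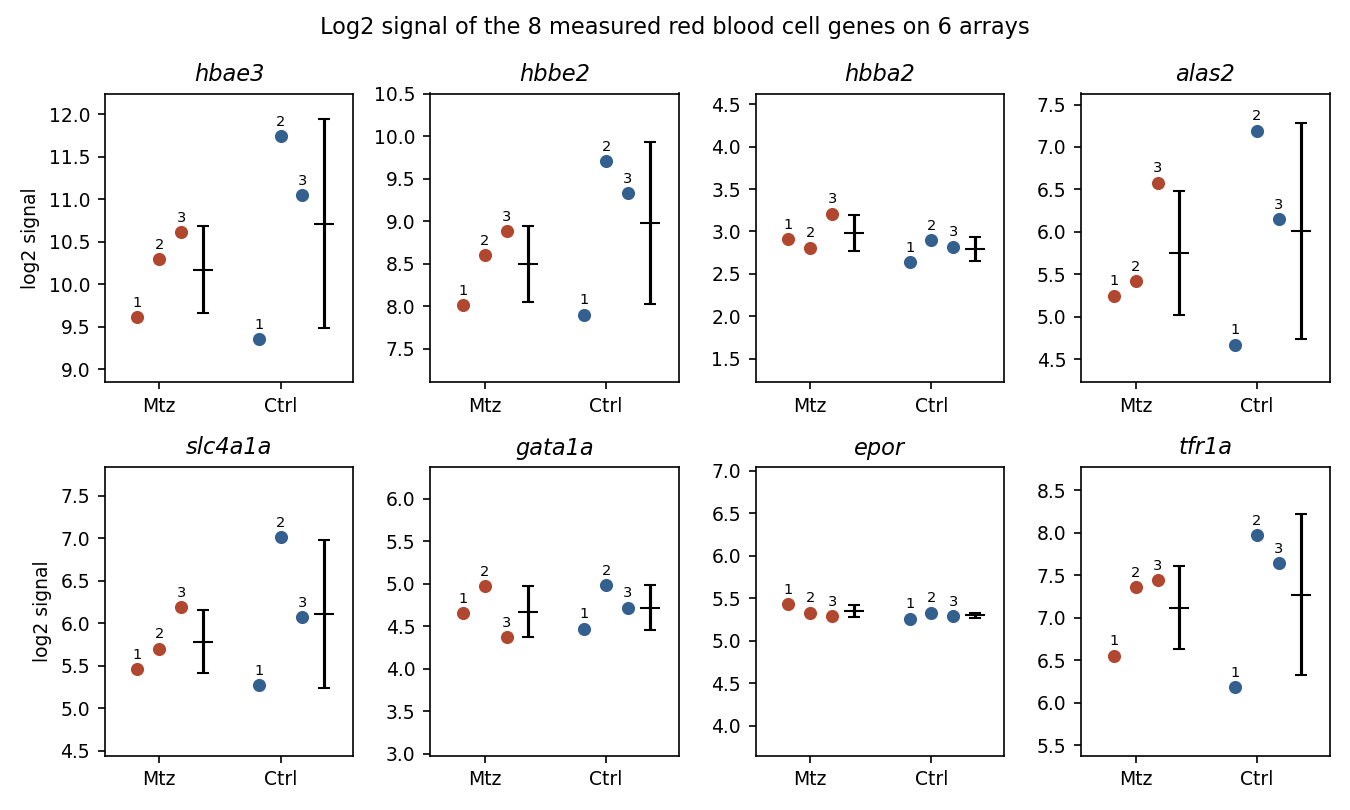
Log2 signal (vertical axis, each panel spanning the same number of log2 units) of the 8 measured red cell genes in 3 Mtz arrays (red) and 3 Ctrl arrays (blue), numbered by replicate, with the mean and SD in black. For hbae3 the Mtz arrays lie between 9.61 and 10.61 and the Ctrl arrays between 9.35 and 11.74, while epor varies by 0.14 or less within either group.

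The other globins named embryonic did not pass the test either. The alpha globin gene hbae1.1, of the same group of 11 globin genes as hbae3, was read by 2 transcript clusters. The one with the higher mean had log2 signals of 8.13, 9.04 and 9.47 in Mtz larvae, against 7.74, 10.64 and 9.59 in Ctrl larvae, with a log2 fold change of -0.45 (SE 0.73), and the other cluster had a log2 fold change of -0.60 (SE 0.67). Both had Ctrl replicate 1 as the lowest array and Ctrl replicate 2 as the highest, as hbae3 and hbbe2 had. The beta globin gene hbbe3 had a log2 fold change of -0.18 (SE 0.19), with 3.12 to 3.43 in Mtz and 3.17 to 3.75 in Ctrl. The alpha globin gene hbae4, named after its values were seen, had a log2 fold change of -0.02 (SE 0.17), with 3.83 to 4.17 in Mtz and 3.74 to 4.11 in Ctrl. Both hbbe3 and hbae4 gave low signals, with means above those of only 22.4% and 33.0% of all clusters. Neither shared the order of hbae3. For hbbe3 Ctrl replicate 1 was the highest array, and for hbae4 it was the lowest but Mtz replicate 3 the highest. The limma adjusted p was 0.963 or more for hbae1.1, hbbe3 and hbae4. Of the 14 globin clusters on the array, 5 carry several symbols and are not reported, and the globin genes resemble each other closely, so how far a probe also reads RNA of a related globin was not tested.

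The adult globins that could be measured gave low signals and varied little. The adult beta globin gene hbba2 had log2 signals of 2.91, 2.81 and 3.21 in Mtz larvae, against 2.64, 2.90 and 2.82 in Ctrl larvae. Its mean lay above that of only 13.2% of all clusters, a range in which folds are compressed. The log2 fold change was 0.19 (SE 0.16, limma adjusted p = 0.952), with a 95% interval of -0.19 to 0.57 and within-replicate differences of 0.27, -0.09 and 0.39. It was 0.07 without Mtz replicate 3 and 0.11 without Ctrl replicate 1. The adult alpha globin gene hbaa2, which is not among the 10 genes, had a log2 fold change of 0.03 (SE 0.14) in its cluster with the higher mean, with 3.41 to 3.50 in Mtz and 3.29 to 3.61 in Ctrl.

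Set against each other, the embryonic globins hbae3 and hbbe2 had a median log2 fold change of -0.51 and the adult globin hbba2 one of 0.19. The embryonic minus adult difference was therefore -0.70. It was -0.09 in replicate 1, -1.19 in replicate 2 and -0.83 in replicate 3 (SD 0.56). In replicate 1 hbae3 and hbbe2 were higher in Mtz (0.26 and 0.10), so the negative sign there came from hbba2 (0.27). The adult gene hbaa2 differed by -0.17 in replicate 1 in its cluster with the higher mean and by 0.20 in the other. The sign in replicate 1 thus depends on the dim adult cluster used. This contrast rests on 1 adult gene of low signal and has no test. The narrow intervals of hbba2, hbaa2, hbbe3 and hbae4, all read by dim clusters, appear in the plot of differences. So do the wide ones of hbae3, hbbe2 and hbae1.1.

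**Figure D2:**
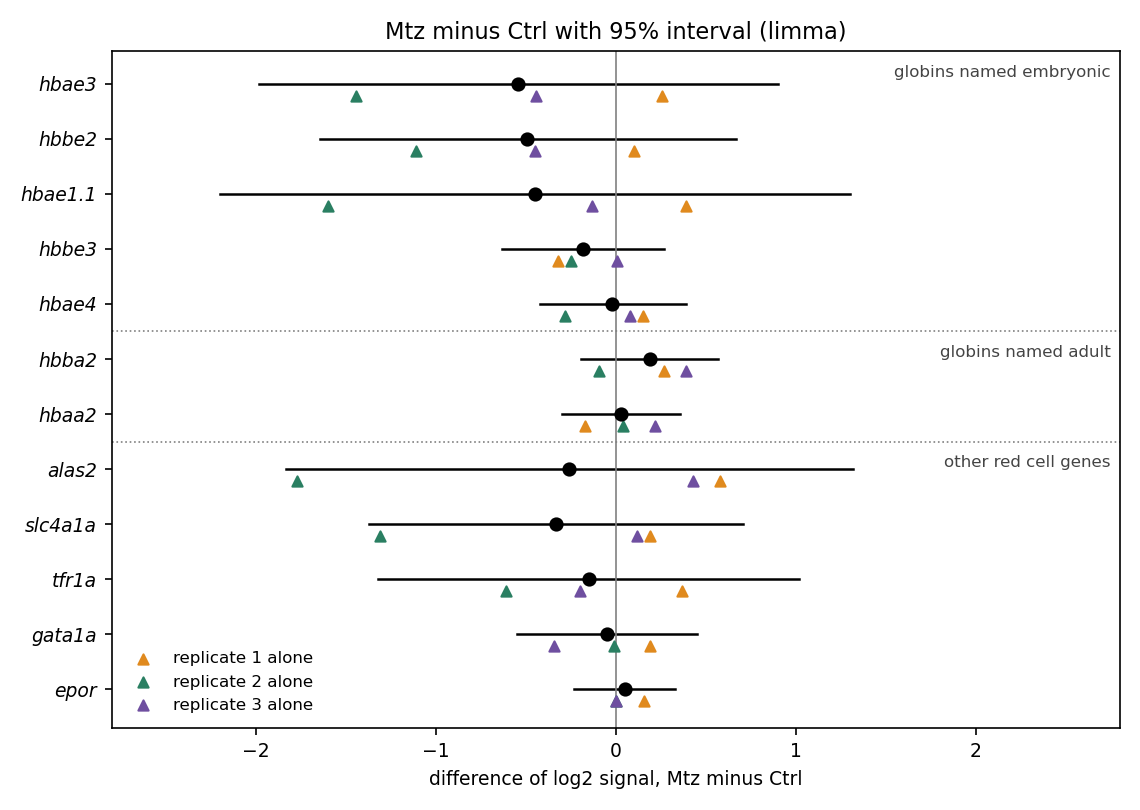
Difference of log2 signal, Mtz minus Ctrl (horizontal axis), for the globins with a cluster of their own and the other 5 measured red cell genes. Black points are the limma estimate with its 95% interval, triangles the difference within each replicate; every interval includes 0, and hbae3 reaches from -1.98 to 0.90.

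The first enzyme of heme synthesis in red cells, encoded by alas2, had the widest spread between arrays of the 8 genes. Its log2 signal was 5.25, 5.42 and 6.58 in Mtz larvae, against 4.67, 7.19 and 6.15 in Ctrl larvae. The log2 fold change was -0.26 (SE 0.66, limma adjusted p = 0.978), with a 95% interval of -1.83 to 1.32. The within-replicate differences were 0.58, -1.77 and 0.43, so that replicate 2 alone was lower in Mtz. Without Ctrl replicate 2 the log2 fold change was 0.34, in the opposite direction.

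The membrane anion exchanger gene slc4a1a had log2 signals of 5.46, 5.70 and 6.19 in Mtz larvae, against 5.27, 7.01 and 6.07 in Ctrl larvae. The lone high array was Ctrl replicate 2, and the other two Ctrl arrays lay within or below the Mtz range. Its log2 fold change was -0.33 (SE 0.44, limma adjusted p = 0.966), with within-replicate differences of 0.19, -1.31 and 0.12. Without Ctrl replicate 2 it was 0.11.

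The transferrin receptor gene tfr1a, which brings iron into red cell precursors, had log2 signals of 6.55, 7.36 and 7.44 in Mtz larvae, against 6.18, 7.97 and 7.64 in Ctrl larvae. Replicate 1 was low in both groups. The log2 fold change was -0.15 (SE 0.49, limma adjusted p = 0.982), with within-replicate differences of 0.37, -0.61 and -0.20. It was 0.20 without Ctrl replicate 2, 0.04 without Ctrl replicate 3 and 0.13 without Mtz replicate 1.

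The genes for regulators of red cell formation were gata1a and epor. The transcription factor gene gata1a had log2 signals of 4.65, 4.97 and 4.37 in Mtz larvae, against 4.47, 4.98 and 4.72 in Ctrl larvae, and a log2 fold change of -0.05 (SE 0.21, limma adjusted p = 0.985). The 95% interval was -0.55 to 0.45, and the sign turned without Mtz replicate 3 (0.09) and without Ctrl replicate 2 (0.08). The erythropoietin receptor gene epor had log2 signals of 5.43, 5.33 and 5.29 in Mtz larvae, against 5.26, 5.33 and 5.29 in Ctrl larvae. Its log2 fold change was 0.05 (SE 0.12, limma adjusted p = 0.976), with a 95% interval of -0.23 to 0.33. A second epor cluster, with a lower mean, was at 4.11, 3.72 and 4.90 in Mtz and 4.47, 4.12 and 4.32 in Ctrl, with a log2 fold change of -0.06 (SE 0.30). The exact permutation p over the 6 arrays lay between 0.4 and 0.8 for the 8 genes, where the smallest that 3 arrays against 3 allow is 0.1.

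Of the 8 measured genes, 5 shared an order of arrays. In hbae3, hbbe2, alas2, slc4a1a and tfr1a alike, Ctrl replicate 1 was the lowest array, Mtz replicate 1 the next and Ctrl replicate 2 the highest. These 5 were grouped after this order was seen. It was not shared by hbba2, gata1a and epor. Ctrl replicate 1 was the lowest and Ctrl replicate 2 the highest array for 3 of the 105 other genes of the wider pathway (2.86%). The share was 1.67% of the 19260 genes and 2.11% of all transcript clusters. Of the 18 red cell membrane and cytosol genes, slc4a1a included, 3 had Ctrl replicate 1 as the lowest array, beside 12.2% of all genes. Ctrl replicate 2 was the highest array for 7 of the 18, and the share of all genes for this is not given here. Centred on each gene's own mean, the 5 genes averaged -0.66, -0.17 and 0.30 in Mtz replicates 1, 2 and 3, against -0.96, 1.08 and 0.41 in Ctrl replicates 1, 2 and 3. The distance between Ctrl replicates 1 and 2 was thus larger than any distance between an Mtz and a Ctrl array of the same replicate. The residual SD of these 5 genes exceeded that of 94.0% to 98.7% of all clusters, that of gata1a 61.6%, that of hbba2 32.9% and that of epor 1.52%, or 83.4% by its second cluster. The part that the number of red cells in each pool of 5 larvae had in this was not tested.

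**Figure D3:**
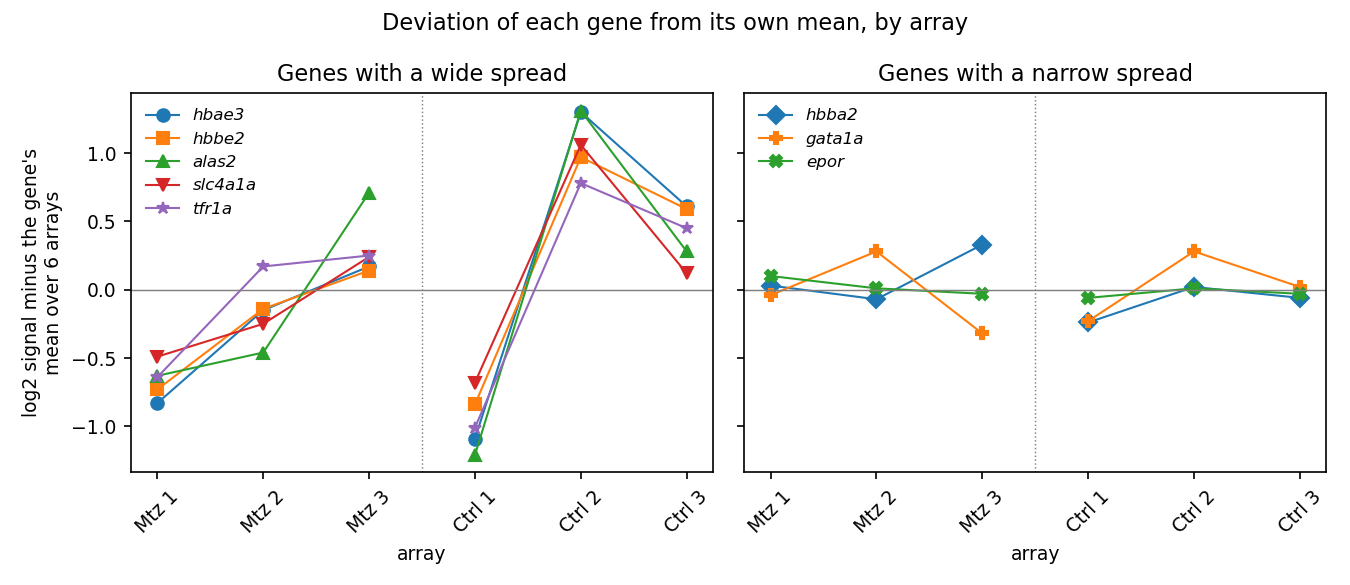
Log2 signal minus the gene's mean over the 6 arrays (vertical axis) for each array (horizontal axis, Mtz left of the dotted line and Ctrl right of it). On the left are the 5 genes with a wide spread, which average -0.96 in Ctrl 1 and 1.08 in Ctrl 2; on the right are hbba2, gata1a and epor on the same scale.

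The wider pathway was described by 7 gene lists for heme synthesis, iron, the red cell membrane and cytosol, erythroid transcription factors, erythropoietin signalling, heme breakdown and the response to low oxygen. Of the 105 measured genes of these lists outside the 10 red cell genes, 0 passed the adjusted p by limma. With an unadjusted p under 0.05, 1 gene was lower and 4 were higher in Mtz, or 4.76%, beside 5.94% of the 19260 genes, of which 822 were lower and 323 higher. The median log2 difference was -0.02, beside 0.02 over all genes. It was negative for 54 of the 105 (51.4%), beside 46.5% of all genes. Mtz and Ctrl arrays did not overlap for 6 of the 105 (1 lower and 5 higher in Mtz), beside 2093 of the 19260 genes (1103 lower and 990 higher). The count at an unadjusted p under 0.05 rests on single arrays. It was 12 without Ctrl replicate 1, 1 without Mtz replicate 1, 1 without Ctrl replicate 2 and 2 without Ctrl replicate 3. Without Mtz replicate 2 it was 4 and without Mtz replicate 3 it was 6, near the 5 of the reported fit. The shares of all genes in these fits are not given here, so whether the pathway genes differ from other genes in this was not tested.

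Heme synthesis had 11 of 17 measured genes with a negative difference, with a median of -0.13 and a range of -0.30 to 0.40. The 3 genes with the lowest p were cpox, an enzyme of the later steps, at -0.30, the mitochondrial glycine carrier gene slc25a38b at 0.40 and clpxb, which encodes the unfoldase subunit of a mitochondrial protease, at 0.40. The ubiquitous first enzyme gene alas1, which serves liver and other tissues, was at 11.06, 10.39 and 10.27 in Mtz and 10.89, 10.20 and 9.82 in Ctrl, and so did not share the array order of alas2. Its log2 fold change was 0.27 (SE 0.33).

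The iron list had 10 of 17 genes with a negative difference and a median of -0.05. Its one gene with an unadjusted p under 0.05 was slc25a37, which encodes mitoferrin 1, the carrier of iron into the mitochondria of red cell precursors. It had log2 signals of 8.39, 8.08 and 7.48 in Mtz larvae, against 7.42, 7.57 and 7.11 in Ctrl larvae, with a log2 fold change of 0.62 (SE 0.26, limma adjusted p = 0.952), and it was higher in each of the 3 replicates. The ferritin-like gene fthl28 was at 7.12, 5.65 and 5.42 in Mtz and 5.12, 5.32 and 5.08 in Ctrl, so most of its log2 fold change of 0.89 (SE 0.43) came from Mtz replicate 1. The ferroxidase gene hephl1a had a log2 fold change of -0.72 (SE 0.40).

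The red cell membrane and cytosol list had 12 of 18 genes with a negative difference and a median of -0.07. The glucose transporter gene slc2a1a had log2 signals of 5.54, 7.52 and 6.91 in Mtz larvae, against 6.82, 8.97 and 8.04 in Ctrl larvae. The groups overlapped, yet Mtz was the lower array in each replicate, by -1.28, -1.44 and -1.13. Its log2 fold change was -1.28 (SE 0.67, limma adjusted p = 0.952), and with the replicate number as a block the adjusted p was 0.445. The catalase gene cat behaved alike, with within-replicate differences of -0.77, -0.94 and -1.06, a log2 fold change of -0.92 (SE 0.39) and an adjusted p of 0.479 by limma with the block. Both genes are also used by many other tissues. The gene cahz, a carbonic anhydrase of red cells that was picked out after its values were seen, was at 5.75, 6.22 and 6.31 in Mtz and 5.59, 7.08 and 6.99 in Ctrl, with a difference of -0.46 (SE 0.41). The cytoskeletal gene dmtn, the last of the 3 with the lowest p, had a log2 fold change of 0.22.

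Erythroid transcription factors had a median of 0.01, with 8 of 19 genes negative and a range of -0.27 to 0.20. The 3 with the lowest p were the repressor genes gfi1aa (-0.25) and gfi1b (-0.18) and the adaptor gene lmo2 (0.15). In klf1, a factor that drives adult globin genes in mammals, the arrays were at 4.38, 5.20 and 4.62 in Mtz and 4.35, 5.09 and 4.62 in Ctrl, a difference of 0.05 (SE 0.28).

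Of 13 genes of erythropoietin signalling, 5 were negative, with a median of 0.02. The STAT5 feedback inhibitor gene cisha was at 8.70, 8.89 and 8.74 in Mtz and 8.38, 8.47 and 8.56 in Ctrl, with no overlap, and had a log2 fold change of 0.31 (SE 0.13, limma adjusted p = 0.952). The survival gene bcl2l1 was at 0.27 and the receptor kinase gene kita at -0.20.

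Heme breakdown and plasma heme binding held the gene with the lowest p of the 7 lists, and had a median of -0.07 with 7 of 11 genes negative. The gene abcg2a, of a family that exports porphyrins and other compounds in mammals, was at 8.56, 9.89 and 8.93 in Mtz and 10.20, 10.56 and 10.24 in Ctrl. Its log2 fold change was -1.21 (SE 0.34, limma adjusted p = 0.952), with no overlap. The heme oxygenase gene hmox2b, which opens the heme ring, was at 7.89, 7.55 and 7.84 in Mtz and 7.28, 7.17 and 7.53 in Ctrl, a log2 fold change of 0.44 (SE 0.16, limma adjusted p = 0.952). The inducible heme oxygenase gene hmox1a had a log2 fold change of -0.07 (SE 0.25), and the heme transporter gene slc48a1b one of 0.21 (SE 0.14) with no overlap. The plasma heme binding gene hpxa was at 4.53, 4.89 and 5.50 in Mtz and 4.29, 6.48 and 5.30 in Ctrl. It is 1 of the 3 pathway genes outside the 10 red cell genes, beside steap3 and cahz, in which Ctrl replicate 1 was lowest and Ctrl replicate 2 highest.

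The list of the response to low oxygen had 6 of 16 genes negative and a median of 0.07. The vessel hormone gene adma was at 6.20, 5.44 and 5.62 in Mtz and 5.32, 5.17 and 5.23 in Ctrl, with a log2 fold change of 0.51 (SE 0.21, limma adjusted p = 0.952) and no overlap. The glycolysis regulator gene pfkfb4b had a log2 fold change of 0.75 (SE 0.42), and slc2a1a, which this list shares with the red cell list, had the opposite sign.

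**Figure D4:**
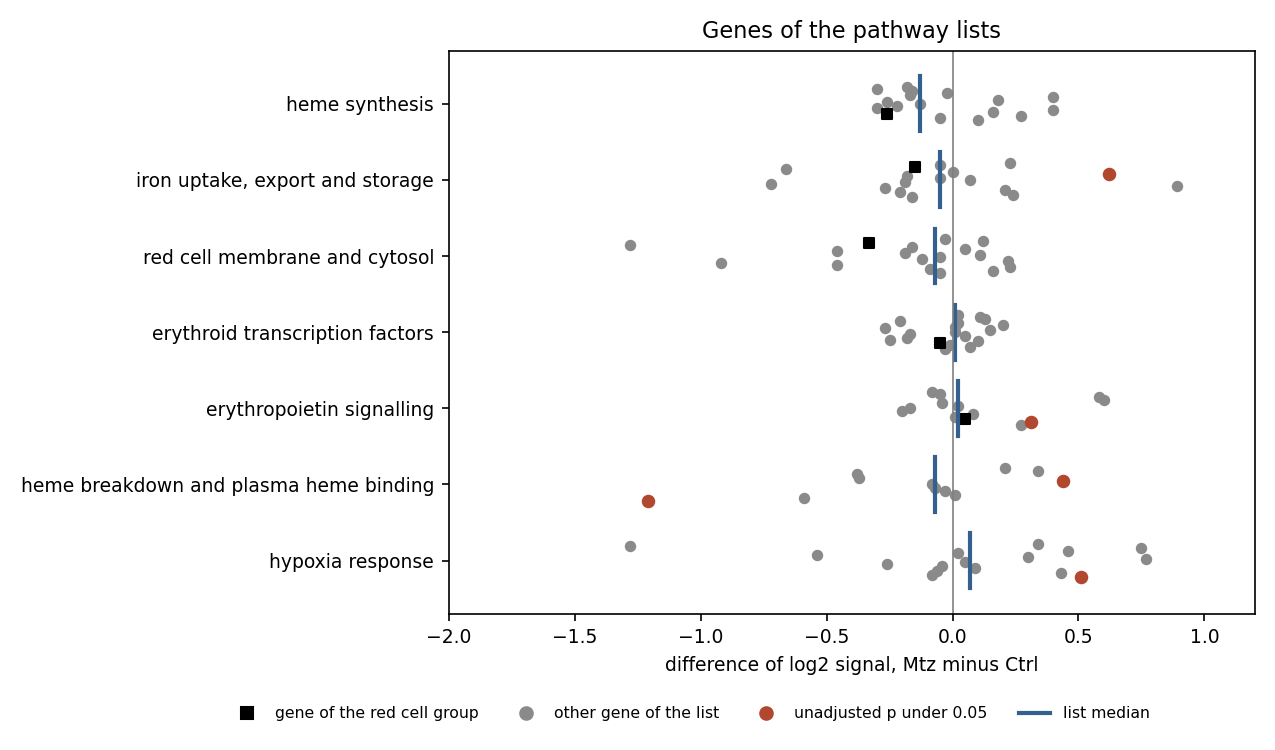
Difference of log2 signal, Mtz minus Ctrl (horizontal axis), of each measured gene in the 7 pathway lists; black squares are red cell genes described above, red points have an unadjusted limma p under 0.05 and blue bars are list medians. The medians lie between -0.13 for heme synthesis and 0.07 for the response to low oxygen, and a single red point, abcg2a, lies below 0.

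Globins outside the red cell were measured as well. The cytoglobin genes cygb1 and cygb2, which are expressed in many tissues, had log2 fold changes of -0.71 (SE 0.27) and -0.32 (SE 0.13, limma adjusted p = 0.952 for both). In both, each Mtz array lay below each Ctrl array, as for 1103 of the 19260 genes. The gene cygb1 was at 7.32, 8.40 and 7.86 in Mtz and 8.59, 8.62 and 8.49 in Ctrl. The gene cygb2 was at 4.20, 4.40 and 4.23 in Mtz and 4.61, 4.50 and 4.66 in Ctrl. The myoglobin gene mb had a log2 fold change of 0.24 (SE 0.16) and the neuroglobin gene ngb one of 0.11 (SE 0.21). The globin genes xgb and adgb were both at 0.03 (SE 0.14 and 0.18). Of the 6 measured genes of this list, 2 were negative and 0 passed the adjusted p. None of the 6 had Ctrl replicate 1 as its lowest array.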

How the data were processed

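The authors measured total RNA on 6 Affymetrix GeneChip Zebrafish Gene 1.0 ST arrays and deposited log2 signals, 1 per transcript cluster and array. The labels name MAS5 without its role. Background correction and normalization are not given in the sources used here, and they set how far the folds of dim clusters are compressed. Of 75212 clusters, 20806 carry 1 gene symbol (20323 of them match a RefSeq gene of assembly GRCz12tu), 855 several and 53551 none. No build is named, so no coordinates are given.

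Mtz was compared with Ctrl with limma (version 3.58.1 under R 4.3.3; lmFit, then eBayes). The test was two-sided and had no batch term, with Benjamini-Hochberg adjustment over all clusters and a threshold of 0.05. Exact permutation tests were run for single genes in Python 3.11.15. The fit was checked on artificial data with known shifts. At an adjusted p under 0.05 it called 8 of 50 clusters raised by 1 log2 unit (16.0%) and 35 of 50 raised by 2 (70.0%). A 2-fold change would thus mostly be missed. The shifted clusters were drawn at random from all clusters, and each array was simulated independently. The residual SD of hbae3, hbbe2, alas2, slc4a1a and tfr1a exceeded that of 94.0% to 98.7% of all clusters. The 2 rates therefore do not apply to these 5 genes. The number of arrays limits the precision. The methods state 3 batches of larvae. Deviations of same-numbered Mtz and Ctrl arrays from their group means correlated at 0.241, 0.148 and 0.127 over all clusters. For different-numbered arrays the correlations lay between -0.171 and 0.0506. Replicate numbers were therefore taken to pair arrays. The correlations are weak, and they are not independent, since the deviations within a group cancel out.

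The red cell genes and gene lists were chosen with earlier results of these data known. Named genes were all measured red cell genes and other globins, mbpa and mbpb, and the 3 genes of each pathway list with the lowest unadjusted p. Of the marker lists of other cells only some genes were named, and no thrombocyte gene. Also named, after their values were seen, were hbae4, cahz, alas1, klf1, hmox1a, hpxa, steap3, csf1ra, mmp13a and the other genes of the neutrophil list. The gene gbx1, a homeobox gene listed among other globins by mistake, was left out. Alternatives were other scalings, a filter on dim clusters, the replicate block, other variance settings, the methods' t-test, linear means, all clusters of a gene and each array left out. Leaving out both arrays of replicate 1 was added after seeing the data.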

Additional observations from a re-analysis of the deposited data

How the results depend on the processing

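The number of red cell genes called was 0 under every alternative run. Without Ctrl replicate 1, or without both arrays of replicate 1, 2 of 8 had an unadjusted limma p under 0.05. The share of all clusters with such a p in these fits is not given here, so this count is not a result about the red cell genes. The median difference of the 8 genes, -0.20, lay between -0.72 and 0.10 with single arrays left out, the highest value being that without Ctrl replicate 2. The embryonic minus adult globin difference kept its sign, between -1.24 (without Ctrl replicate 1) and -0.32 (without Ctrl replicate 2). It could not be computed above the median signal, where hbba2 was filtered out. Every alternative used the same dim adult gene, hbba2, so whether the sign holds for other adult globins was not tested by them. With single arrays left out, the log2 difference ranged from -0.92 to 0.34 for alas2, from -0.75 to 0.11 for slc4a1a, from -0.69 to 0.20 for tfr1a and from -0.21 to 0.09 for gata1a, so these 4 changed sign. The count of other pathway genes at an unadjusted p under 0.05, 5 in the reported fit, was 3 after quantile normalization, after median centring, above the median signal, with an intensity trend and by the methods' t-test. It was 9 with the replicate block, 11 with array weights, 12 without both arrays of replicate 1, and 1 to 12 with single arrays left out. The shares of all genes under these alternatives are not given here, so these counts cannot be set against them. The cause was not tested. With the replicate block the adjusted p of the 8 red cell genes lay between 0.784 and 0.969, and the block changed no call.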

Other observations

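Marker lists of the other cells in or near the blood gave 0 genes past the adjusted p by limma. Of 6 thrombocyte genes 2 were negative (median 0.04), of 7 neutrophil genes 2 (median 0.14), of 9 lymphocyte genes 5 (median -0.03), of 5 genes of the ablated cells 3 (median -0.14) and of 14 endothelial genes 4 (median 0.08). Among the 9 lymphocyte genes, 1 had an unadjusted limma p under 0.05, beside 5.94% of all genes. This was ccr9a at -0.49 (standard error 0.19, limma adjusted p = 0.952), with each Mtz array below each Ctrl array, as for 1103 of the 19260 genes. Of 7 macrophage genes 6 were negative, csf1ra by only -0.01, with a median of -0.14, beside 46.5% negative of all genes. An unadjusted limma p under 0.05 was found for 3 of the 7, beside 5.94% of all genes (822 of 19260 lower in Mtz and 323 higher). These 3 were lower in Mtz: mpeg1.1 at -1.40 (standard error 0.35), mpeg1.2 at -1.18 (standard error 0.49) and the transcription factor gene spi1b at -0.44 (standard error 0.15, limma adjusted p = 0.952 for each). The neutrophil list had a median of 1.28 in replicate 1, -0.41 in replicate 2 and -0.29 in replicate 3. Its one gene with an unadjusted limma p under 0.05, cpa5, is a pancreas gene as well, and its mean lay above that of 99.9% of all clusters. Whether its signal here comes from neutrophils was not tested. In the vessel lining genes cdh5 and stab1, 2 of the 14 endothelial genes, each Mtz array lay above each Ctrl array, as for 990 of the 19260 genes, with log2 fold changes of 0.32 (standard error 0.14) and 0.28 (standard error 0.14).

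Outside the red cell genes, the named genes whose pattern over the 6 arrays was most like the mean of hbae3, hbbe2 and hbba2 were or63b1, hbae1.1, mbd3a, mrpl38 and atp6v1g1. Pearson's r with that mean lay between 0.986 and 0.999 over the 6 arrays, which is a description by shape alone, and 242 of 19252 genes (1.26%) had an r over 0.9. Of these, hbae1.1 spanned 2.90 log2 units within Ctrl, while mbd3a spanned 0.75, atp6v1g1 0.36, mrpl38 0.25 and or63b1 0.18.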
